A study of Mus musculus with 6 samples.

Results

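The 10 mouse genes described here belong to the NF-kB pathway and to the inflammatory cytokines tied to it: the subunit genes Nfkb1 and Relb, the feedback inhibitor genes Nfkbia and Tnfaip3, the endothelial adhesion genes Icam1 and Vcam1, and the cytokine genes Il1a, Il1b, Il6 and Tnf. They were picked by symbol from a matrix of 56980 genes, each symbol matched 1 entry, and all 10 were among the 15650 genes tested, those whose mean reached 1 TPM, a transcript abundance corrected for gene length and scaled to a fixed total in each library. Expression was measured by RNA sequencing of whole lung of NSG mice that had carried a human breast tumour xenograft in the mammary fat pad for 5 weeks. In the DPP3_KO group (n = 3 libraries) the tumours grew from MDA-MB-231 cells, a triple-negative breast cancer line, with DPP3 (dipeptidyl peptidase 3) knocked out, and in the Ctrl group (n = 3 libraries) from MDA-MB-231 cells without that deletion. All hosts were NSG mice, an immunodeficient strain without mature T, B or natural killer cells, and the labels name no deletion in the hosts themselves. The labels give neither the age of the mice nor the number of knockout clones, and they do not state whether replicates came from different mice, so the p-values describe only the spread among these libraries. The title of the third Ctrl library gives a different number for the cell line than the others, which was read as a slip.

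NF-kB is a family of dimeric transcription factors that are held in the cytoplasm by inhibitor proteins of the IkB family. Signals from receptors for IL-1, TNF or microbial products activate a kinase complex that marks the inhibitor for destruction, and the freed dimers switch on cytokine, chemokine and adhesion genes. Among their targets are Nfkbia and Tnfaip3, whose products shut the signal off again, so the RNA of these feedback genes is widely read beside that of the cytokines. In the lung, ICAM-1 is carried by alveolar epithelium and endothelium and VCAM-1 by activated endothelium and stromal cells, while macrophages, monocytes and neutrophils are known sources of IL-1 and TNF.

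Promoter sequences are shown for the 4 genes whose upstream window held a match to an NF-kB (kappa B) site. These genes did not all share a single pattern over the libraries. RefSeq windows of build GRCm38.p6 were given for 7 of the 10 genes (Icam1, Nfkbia, Tnfaip3, Il1a, Il1b, Il6 and Tnf). The 250 bases before the gene start were searched on both strands for a 10-base form, GGG and TTCC with any 3 bases between them, and for the palindromic form GGAANTTCC, and the second form was added after the sequences had been read. Capitals mark every match, and the 2 forms overlap in Nfkbia. Icam1 lies at chr9:21015690-21015939 (+ strand), Nfkbia at chr12:55492648-55492897 (- strand), the first of 2 windows of Tnfaip3 at chr10:19015411-19015660 (- strand) and Il6 at chr5:30012864-30013113 (+ strand).
Icam1: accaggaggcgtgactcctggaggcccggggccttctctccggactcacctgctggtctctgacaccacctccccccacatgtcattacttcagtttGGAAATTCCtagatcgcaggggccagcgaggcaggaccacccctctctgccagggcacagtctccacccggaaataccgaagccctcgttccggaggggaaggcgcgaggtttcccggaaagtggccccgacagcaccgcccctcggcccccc
Nfkbia: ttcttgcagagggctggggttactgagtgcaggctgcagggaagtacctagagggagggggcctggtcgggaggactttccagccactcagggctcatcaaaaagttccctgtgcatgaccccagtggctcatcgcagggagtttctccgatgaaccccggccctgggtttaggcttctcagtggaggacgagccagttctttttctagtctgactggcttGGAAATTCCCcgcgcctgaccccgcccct
Tnfaip3: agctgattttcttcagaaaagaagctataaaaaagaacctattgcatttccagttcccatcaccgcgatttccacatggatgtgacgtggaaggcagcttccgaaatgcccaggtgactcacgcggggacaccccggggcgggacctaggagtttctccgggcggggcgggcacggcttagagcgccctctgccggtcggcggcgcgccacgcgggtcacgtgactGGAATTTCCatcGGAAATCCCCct
Il6: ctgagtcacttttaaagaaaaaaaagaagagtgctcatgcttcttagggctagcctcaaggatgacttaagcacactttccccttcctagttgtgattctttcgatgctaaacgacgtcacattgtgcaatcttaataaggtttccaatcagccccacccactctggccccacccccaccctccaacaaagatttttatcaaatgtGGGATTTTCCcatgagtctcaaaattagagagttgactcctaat

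The 10-base form was present in Nfkbia, Tnfaip3 and Il6, or 3 of the 7 genes, against 5.31% of 27025 genes with windows of this length. The form GGAANTTCC was present in Icam1, Nfkbia and Tnfaip3, or 3 of 7, against 0.944% of those genes. Since this form was added after these same sequences had been read, its share is no test of enrichment. In Icam1 the match GGAAATTCC stood 153 to 145 bases before the start, and the identical letters stood 29 to 21 bases before the start of Nfkbia. These distances are from the RefSeq start, which lay 45 bases from the nearest GENCODE start of Icam1 and 0 bases from that of Nfkbia. Neither form was in the Il1a, Il1b or Tnf window, and a match is a description of letters, not evidence of a bound site.

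The scale of the values bears on every result. TPM sums to the same total in each library, so sequencing depth is unknown and a few abundant genes can lower all others: the club cell secretoglobin Scgb1a1 held 21.7% to 28.7% of all TPM in DPP3_KO lungs and 7.16% to 10.1% in Ctrl lungs. Each change is therefore given as deposited and after ratio scaling, which is the median-of-ratios method and divides each library by its typical ratio over genes. The median log2 change of all 15650 genes, DPP3_KO minus Ctrl on the log2(TPM + 1) scale, was -0.60 as deposited and -0.03 after that scaling. As deposited, limma (Benjamini-Hochberg adjusted p under 0.05) called 34% of all genes tested lower in DPP3_KO and 1.38% higher. After ratio scaling it called 0.882% lower and 1.9% higher. The number of lower genes as deposited, 5321, was 3163, 4993 and 1596 without DPP3_KO replicates 1, 2 and 3 in turn. It was 18, 71 and 4096 without Ctrl replicates 1, 2 and 3 in turn. Surfactant and other lung epithelial markers, 0 of 5 of which passed limma (2 lower at an unadjusted p under 0.05), summed to 18714 to 29653 TPM in DPP3_KO and 25805 to 48071 TPM in Ctrl, so the tissue carried its defining genes. Markers of T, B and natural killer cells summed to 0.10 to 2.28 TPM in DPP3_KO and 1.26 to 2.91 TPM in Ctrl.

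Of the 10 genes, 3 fell in DPP3_KO lungs as deposited (Icam1, Nfkb1 and Il1a), 0 rose and 7 did not pass, and the same 3 were the ones whose groups did not overlap. A count of 3 in 10 is near the 34% called lower among all genes, and 51.1% of all genes had groups that did not overlap with DPP3_KO lower (2.73% with DPP3_KO higher), so neither count sets the list apart. The median log2 change of the 10 genes was -0.37, against -0.60 for all genes. After ratio scaling 0 of 10 passed limma in either direction, the median was 0.26, and Icam1 and Il1a remained the 2 genes without overlap, where 15.4% of all genes tested lay lower without overlap and 14.6% higher. At an unadjusted p under 0.05 these same 2 genes passed limma on that scale. Expression per length ran, in DPP3_KO lungs, from Nfkbia, Il1b and Icam1 at means of 258, 174 and 122 TPM down to Tnf, Il6 and Il1a at 7.13, 4.09 and 1.16 TPM. In Ctrl lungs Icam1 had the highest mean, 326 TPM, followed by Nfkbia at 244 and Il1b at 204 TPM, with Tnf, Il1a and Il6 lowest at 4.31, 4.18 and 1.58 TPM. Nfkbia and Il1b overlapped in both groups, as did Tnfaip3 and Relb.

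**Figure D1:**
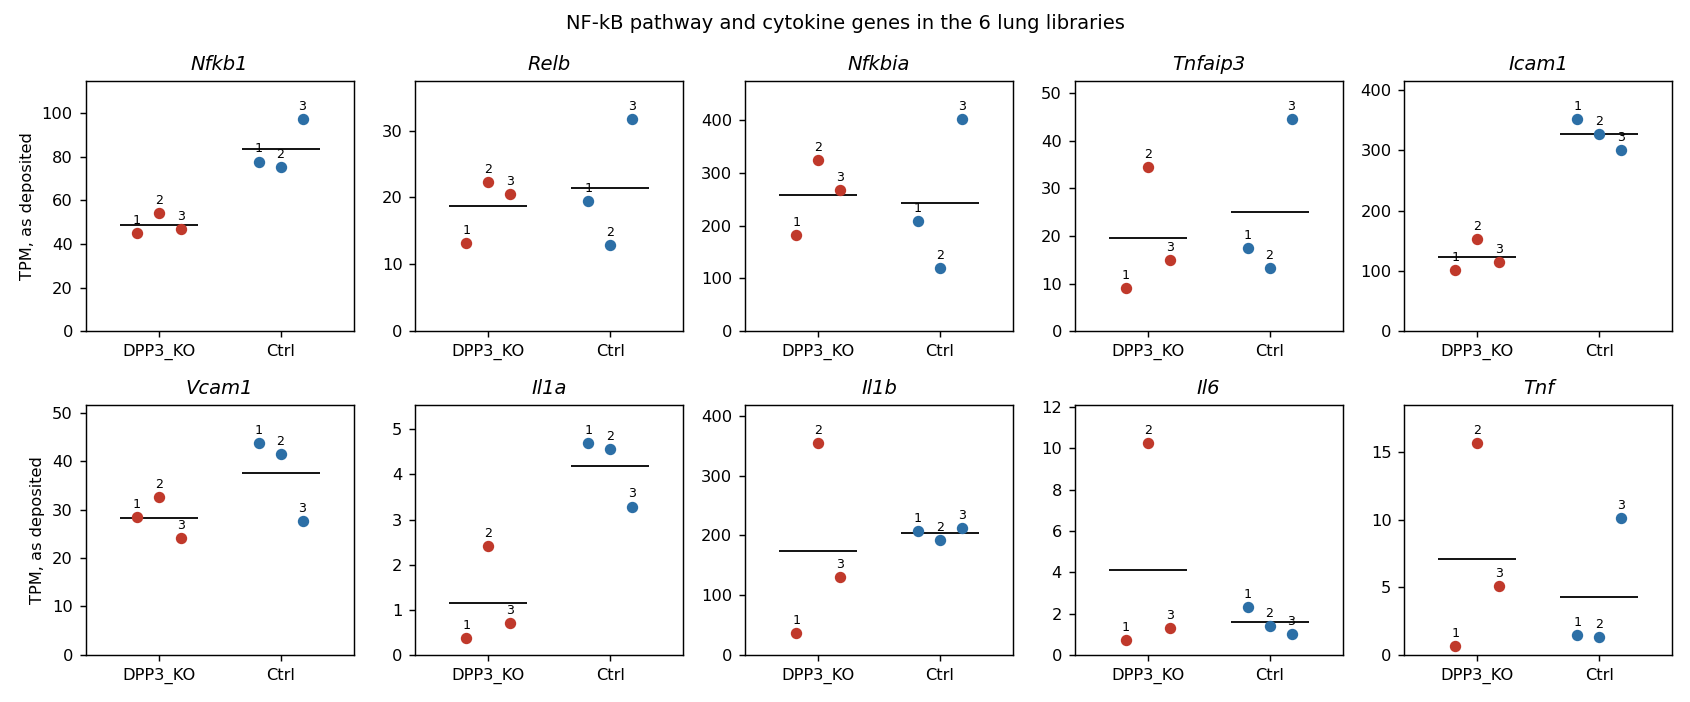
TPM as deposited (y axis, from 0) of each of the 10 genes in the 3 DPP3_KO and 3 Ctrl libraries; points are libraries marked with their replicate number and lines are group means. Icam1, Nfkb1 and Il1a are separated by group, while the highest point of Il1b, Il6 and Tnf is DPP3_KO replicate 2 and that of Nfkbia, Tnfaip3 and Relb is Ctrl replicate 3.

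Nfkb1 (ENSMUSG00000028163) encodes a precursor that is processed to a DNA-binding subunit of the canonical NF-kB dimer. It stood at 45.2, 54.3 and 47.0 TPM in DPP3_KO replicates 1 to 3, against 77.7, 75.0 and 97.1 TPM in Ctrl replicates 1 to 3. All 3 DPP3_KO values lay under all 3 Ctrl values. The means were 48.8 ± 4.80 TPM in DPP3_KO and 83.3 ± 12.0 TPM in Ctrl (SD, n = 3 each), a log2 change of -0.75 ± 0.18 (SE; limma, adjusted p = 0.0225). This fall was close to the median of all genes, and 36.5% of the genes tested had a more negative change. After ratio scaling the change was -0.10 (95% interval -0.57 to 0.36, adjusted p = 0.783), with overlapping groups. As deposited, the adjusted p was 0.0537 without DPP3_KO replicate 1, 0.0575 without DPP3_KO replicate 3, 0.0632 without Ctrl replicate 1 and 0.0908 without Ctrl replicate 2.

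Relb (ENSMUSG00000002983), a subunit of the non-canonical branch of the pathway and itself induced by NF-kB, did not pass. It stood at 13.2, 22.3 and 20.5 TPM in DPP3_KO replicates 1 to 3, against 19.5, 12.9 and 31.7 TPM in Ctrl replicates 1 to 3. The groups overlapped fully, since Ctrl held both the highest and the lowest library. The log2 change was -0.13 as deposited (95% interval -0.95 to 0.68) and 0.49 after ratio scaling (-0.42 to 1.40).

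Nfkbia (ENSMUSG00000021025) encodes IkB-alpha, the inhibitor that NF-kB induces to end its own activity. It stood at 182, 324 and 267 TPM in DPP3_KO replicates 1 to 3, against 208, 121 and 402 TPM in Ctrl replicates 1 to 3. The Ctrl libraries spanned a 3.33-fold range and enclosed all 3 DPP3_KO values. The log2 change was 0.21 as deposited (95% interval -0.81 to 1.24, limma adjusted p = 0.711) and 0.87 after ratio scaling (-0.28 to 2.02, adjusted p = 0.331). Without Ctrl replicate 2, the lowest library, the change as deposited was -0.21.

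Tnfaip3 (ENSMUSG00000019850) encodes a ubiquitin-editing enzyme that dampens signalling upstream of the kinase complex. It stood at 9.10, 34.4 and 14.9 TPM in DPP3_KO replicates 1 to 3, against 17.5, 13.2 and 44.5 TPM in Ctrl replicates 1 to 3. In each group 1 library stood apart above the others, DPP3_KO replicate 2 and Ctrl replicate 3. The log2 change was -0.36 as deposited (95% interval -1.68 to 0.97) and 0.26 after ratio scaling (-1.10 to 1.63), and it was 0.05 as deposited without DPP3_KO replicate 1 and 0.14 without Ctrl replicate 3.

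Icam1 (ENSMUSG00000037405), which encodes the ligand of the leukocyte beta2 integrins, had the smallest p of the 10 genes. It stood at 101, 152 and 114 TPM in DPP3_KO replicates 1 to 3, against 352, 327 and 300.1 TPM in Ctrl replicates 1 to 3. The groups were far apart, with the highest DPP3_KO library at 152 TPM and the lowest Ctrl library at 300.1 TPM. The means were 122 ± 26.7 TPM in DPP3_KO and 326 ± 25.8 TPM in Ctrl (SD, n = 3 each), so the DPP3_KO mean was 0.375 times that of Ctrl. The log2 change was -1.43 ± 0.20 (SE; limma, adjusted p = 0.0145), and 5.97% of the genes tested had a more negative change. After ratio scaling it was -0.77 (95% interval -1.21 to -0.33, adjusted p = 0.0804), and after quantile normalization -0.99 (adjusted p = 0.0365). As deposited, the adjusted p was 0.0583 without Ctrl replicate 1 and 0.0799 without Ctrl replicate 2, while the change stayed between -1.59 and -1.30 over all 6 omissions of a library.

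Most markers of alveolar type 1 cells and of capillary endothelium, which carry ICAM-1, were called lower as deposited in the same libraries. Of the 5 surfactant and other lung epithelial markers 0 passed limma on either scale. Their median log2 change was -0.57 as deposited and 0.09 after ratio scaling. Of 8 alveolar type 1 cell markers 7 fell as deposited and 2 after ratio scaling, against 34% and 0.882% of all genes tested. Their summed level was 1110 to 2560 TPM in DPP3_KO and 3582 to 5915 TPM in Ctrl. After that scaling the sums overlapped, at 1230 to 3189 in DPP3_KO and 3032 to 4457 in Ctrl. Of 8 capillary endothelial markers 7 fell as deposited and 3 after that scaling. Their sums were 549 to 962 TPM in DPP3_KO and 2200 to 2580 TPM in Ctrl. Scaled, these sums were 609 to 1381 in DPP3_KO and 1862 to 1944 in Ctrl. Markers of other cells were higher in DPP3_KO, where 1.38% of all genes rose as deposited and 1.9% after that scaling. Of 5 club cell markers 4 rose as deposited and 2 after that scaling. Their sums were 229500 to 297110 TPM in DPP3_KO and 74377 to 105800 TPM in Ctrl. Of 5 heart muscle markers 3 rose on both scales, with sums of 1187 to 1422 TPM in DPP3_KO and 353 to 686 TPM in Ctrl. No marker of these lists was at 0 in every library. The part of these cell types in the Icam1 result was not tested, and in whole tissue fewer cells of a type and less RNA per cell cannot be told apart.

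Vcam1 (ENSMUSG00000027962), the ligand of the integrin alpha4beta1, differed less. It stood at 28.5, 32.6 and 24.1 TPM in DPP3_KO replicates 1 to 3, against 43.8, 41.5 and 27.7 TPM in Ctrl replicates 1 to 3. The groups overlapped because Ctrl replicate 3 lay among the DPP3_KO libraries. The log2 change was -0.38 as deposited (95% interval -0.92 to 0.16, limma adjusted p = 0.215) and 0.26 after ratio scaling (-0.17 to 0.69, adjusted p = 0.438), so its direction depended on the scale.

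Ratios within a library do not depend on scaling, and 4 of them were computed after the values had been seen. Icam1 over Vcam1 was 3.54, 4.68 and 4.74 in DPP3_KO replicates 1 to 3, against 8.03, 7.89 and 10.8 in Ctrl replicates 1 to 3, without overlap. The difference was -1.04 on the log2 scale (two-sided exact permutation p = 0.1, the smallest that 3 against 3 libraries can give; adjusted p = 0.267 over the 4 ratios). Nfkbia over Nfkb1 was 4.03, 5.97 and 5.69 in DPP3_KO, against 2.68, 1.61 and 4.14 in Ctrl. This inhibitor-to-subunit ratio overlapped in 1 library, Ctrl replicate 3 (difference 0.98 on the log2 scale, exact permutation p = 0.2, adjusted p = 0.267). Relb over Nfkb1 was 0.291, 0.411 and 0.436 in DPP3_KO, against 0.251, 0.172 and 0.326 in Ctrl (difference 0.63, exact permutation p = 0.2, adjusted p = 0.267).

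**Figure D2:**
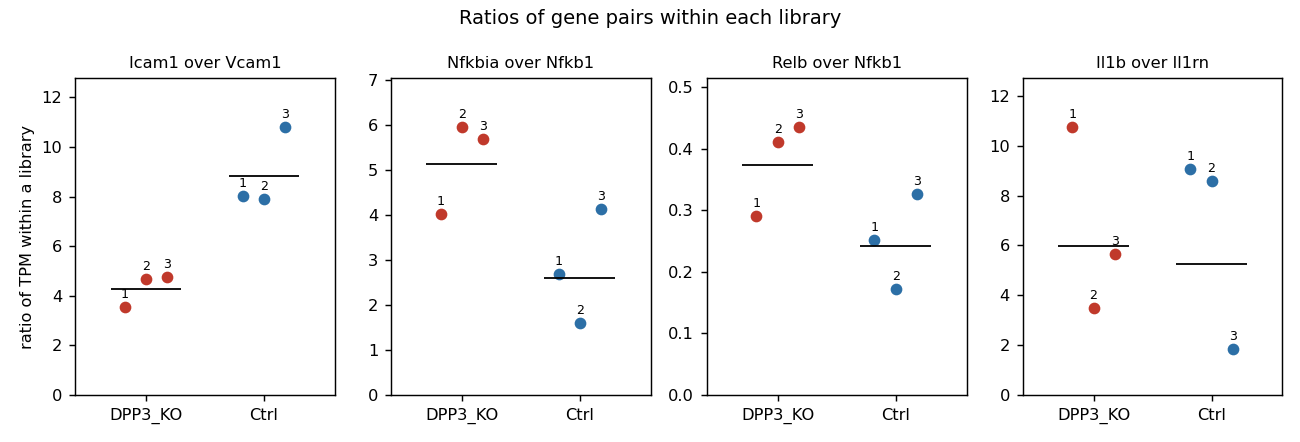
Ratio of TPM of 2 genes within each library (y axis, from 0) for 4 pairs; points are libraries marked with their replicate number and lines are geometric means. Icam1 over Vcam1 is 3.54 to 4.74 in DPP3_KO and 7.89 to 10.8 in Ctrl, and the other 3 ratios overlap between the groups.

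Il1a (ENSMUSG00000027399) encodes the membrane-bound and alarmin form of IL-1 and was the 1 cytokine gene that fell. It stood at 0.37, 2.41 and 0.70 TPM in DPP3_KO replicates 1 to 3, against 4.70, 4.56 and 3.29 TPM in Ctrl replicates 1 to 3. All DPP3_KO values were lower, although DPP3_KO replicate 2 came close to the lowest Ctrl library. The means were 1.16 ± 1.10 TPM in DPP3_KO and 4.18 ± 0.777 TPM in Ctrl (SD, n = 3 each), and the log2 change was -1.37 ± 0.37 (SE; limma, adjusted p = 0.0311), which understates the change of so low a gene. After ratio scaling it was -0.96 (95% interval -1.81 to -0.11, adjusted p = 0.177). As deposited, the call held only without DPP3_KO replicate 2 (adjusted p = 0.0263): the adjusted p was 0.0743 without DPP3_KO replicate 1, 0.0902 without DPP3_KO replicate 3, 0.0904 without Ctrl replicate 1, 0.111 without Ctrl replicate 2 and 0.0502 without Ctrl replicate 3.

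Of 9 alveolar macrophage markers 6 were called lower as deposited and 5 after ratio scaling, against 34% and 0.882% of all genes tested. Their sum was 292, 1786 and 544 TPM in DPP3_KO replicates 1 to 3, against 1517, 1269 and 2977 TPM in Ctrl replicates 1 to 3. Within DPP3_KO this sum and Il1a followed the same order of libraries, and in Ctrl the library with the highest sum had the lowest Il1a. Chil3 was the largest part of the sum in every library, and was highest in DPP3_KO replicate 2 and Ctrl replicate 3. This order of libraries was not that of each marker. Siglecf stood at 0.45, 0.88 and 0.25 TPM in DPP3_KO replicates 1 to 3, against 14.4, 15.4 and 6.6 TPM in Ctrl. The 6 called markers did not overlap between the groups, where 51.1% of all genes lay lower without overlap as deposited. Chil3, Marco and Fabp4 overlapped. Of 6 monocyte markers 3 fell as deposited, where 34% of all genes did. After ratio scaling 0 passed limma (1 lower at an unadjusted p under 0.05). Their sums were 154 to 319 TPM in DPP3_KO and 444 to 492 TPM in Ctrl. Scaled, these sums overlapped, at 197 to 354 in DPP3_KO and 330 to 410 in Ctrl. No marker of either list was at 0 in every library, and the part of these cells in the Il1a result was not tested.

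Il1b (ENSMUSG00000027398), the secreted form of IL-1, was nearly level in Ctrl and widely spread in DPP3_KO. It stood at 37.3, 355 and 130 TPM in DPP3_KO replicates 1 to 3, against 207, 192 and 213 TPM in Ctrl replicates 1 to 3. The DPP3_KO libraries spanned a 9.53-fold range that enclosed the Ctrl libraries, which spanned a 1.11-fold range. The means were 174 ± 163 TPM in DPP3_KO and 204 ± 11.0 TPM in Ctrl (SD, n = 3 each), with a log2 change of -0.76 (95% interval -2.41 to 0.90, limma adjusted p = 0.407) and -0.10 after ratio scaling. The change was 0.07 without DPP3_KO replicate 1 and -1.53 without DPP3_KO replicate 2 (adjusted p = 0.0598).

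Il6 (ENSMUSG00000025746), the inducer of acute-phase proteins, was low except in a single library. It stood at 0.72, 10.3 and 1.30 TPM in DPP3_KO replicates 1 to 3, against 2.33, 1.40 and 1.01 TPM in Ctrl replicates 1 to 3. The log2 change of 0.49 (95% interval -1.10 to 2.08, limma adjusted p = 0.576) rested on DPP3_KO replicate 2 and was -0.34 without it. After ratio scaling the change was 0.88 (95% interval -0.71 to 2.47).

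Tnf (ENSMUSG00000024401), which encodes tumour necrosis factor, had the widest range of the 10 genes, 24.5-fold from lowest to highest library. It stood at 0.64, 15.7 and 5.07 TPM in DPP3_KO replicates 1 to 3, against 1.50, 1.32 and 10.1 TPM in Ctrl replicates 1 to 3. High and low libraries occurred in both groups. The log2 change was 0.45 (95% interval -1.71 to 2.62, limma adjusted p = 0.706), 0.91 after ratio scaling and -0.35 as deposited without DPP3_KO replicate 2.

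**Figure D3:**
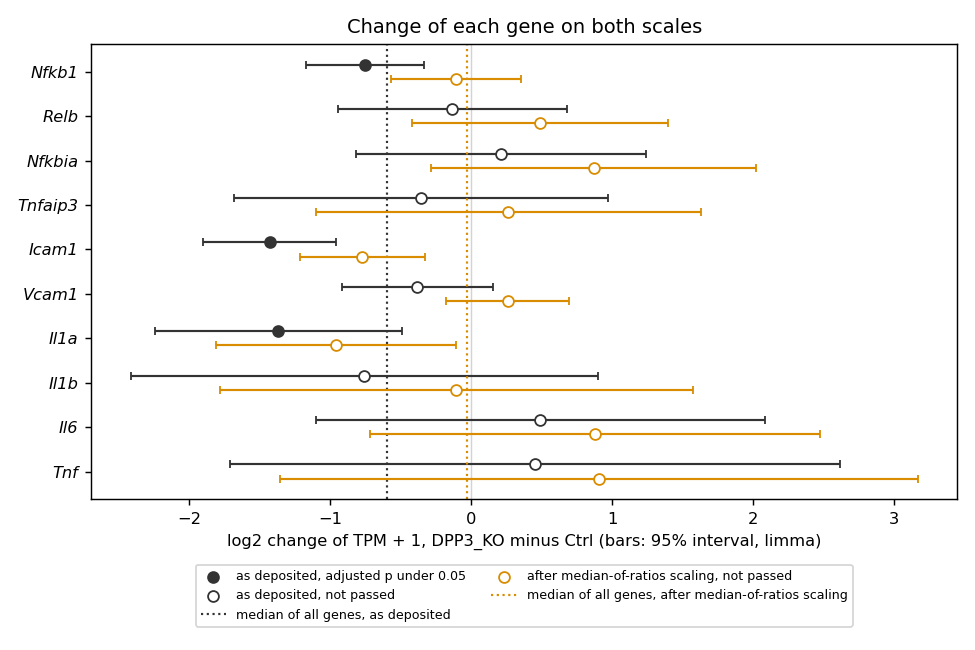
Log2 change of TPM + 1, DPP3_KO minus Ctrl (x axis), of each gene with its 95% limma interval, as deposited in black and after ratio scaling in orange; filled points have an adjusted p under 0.05 and dotted lines mark the median of all genes. Nfkb1, Icam1 and Il1a are filled as deposited and no point is filled after scaling, where the intervals of Icam1 and Il1a lie below 0.

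The 10 genes did not share a single pattern over the libraries. Likeness was measured as the root-mean-square difference of 2 genes' log2(TPM + 1), each centred on its mean over the 6 libraries. By that measure Nfkbia and Relb were the closest feedback pair, at 0.23, and each ranked the 6 libraries in the same order, Ctrl replicate 3 first and Ctrl replicate 2 last. Tnfaip3 was 0.44 from Nfkbia and 0.42 from Relb, and its highest libraries were likewise Ctrl replicate 3 and DPP3_KO replicate 2. Icam1 and Il1a were 0.24 apart, with the 6 libraries in 1 shared order from Ctrl replicate 1 down to DPP3_KO replicate 1. Icam1 and Tnf, at 1.47, were the least alike of the 10 genes.

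DPP3_KO replicate 2 and Ctrl replicate 3 also stood apart in neutrophil markers. The sum of 10 such markers, 0 of which passed limma in either direction on either scale (0 also at an unadjusted p under 0.05), was 1671, 34875 and 14771 TPM in DPP3_KO replicates 1 to 3, against 4064, 7204 and 51990 TPM in Ctrl replicates 1 to 3. Tnf was highest in the same 2 libraries, and its third-highest library was DPP3_KO replicate 3, as it was for the markers. Il1b was at 192 to 213 TPM in the 3 Ctrl libraries, whose neutrophil sums ran from 4064 to 51990 TPM. The marker with the narrowest fold range there, Csf3r, ran from 131 to 306 TPM. Il6 reached 10.3 TPM in DPP3_KO replicate 2 and 1.01 TPM in Ctrl replicate 3, the library with the highest neutrophil sum. None of the markers was at 0 in every library, and the part of neutrophils in these values was not tested.

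**Figure D4:**
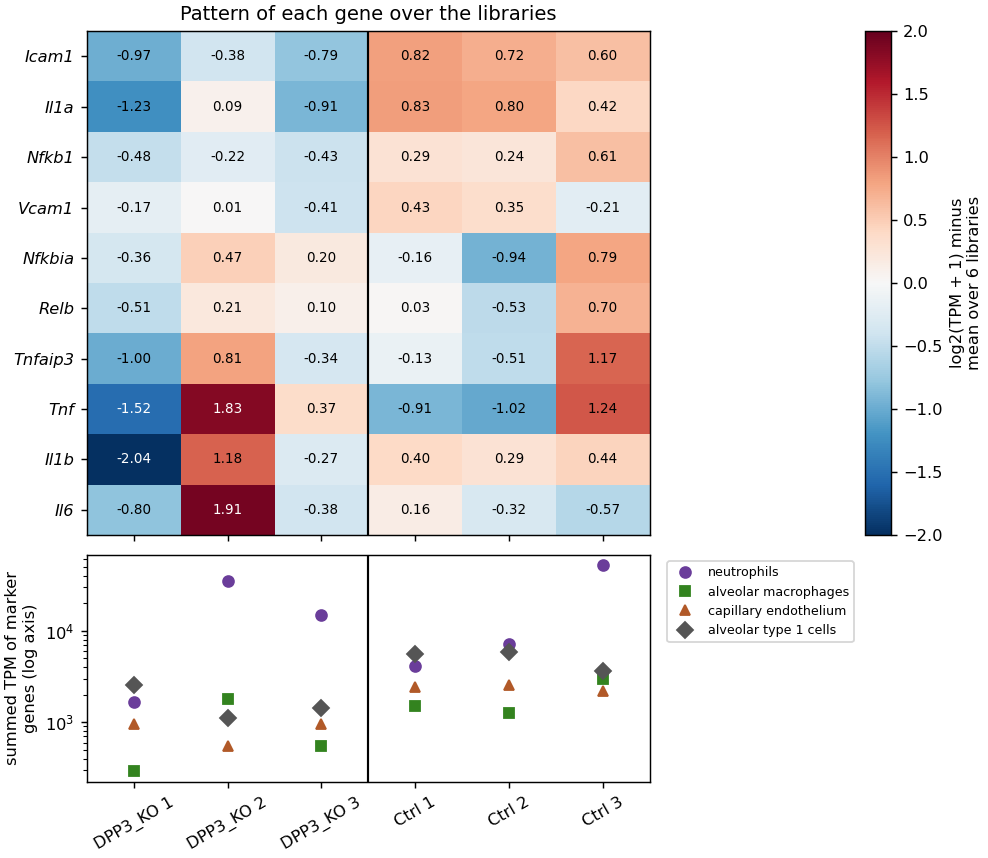
Upper panel, log2(TPM + 1) of each gene minus its mean over the 6 libraries (colour and printed value), DPP3_KO libraries left and Ctrl right; lower panel, summed TPM of the marker genes of 4 cell types in the same libraries on a log axis. Icam1, Il1a and Nfkb1 separate the groups, whereas Tnfaip3 and Tnf are highest in DPP3_KO replicate 2 and Ctrl replicate 3, the libraries with neutrophil sums of 34875 and 51990 TPM.

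The genes nearest to the 3 most variable members were found by the same measure among the genes tested. Unnamed gene models, sex-linked genes and the other members were left out of this search. For Tnf these were Rilpl2, Alox5ap and Prkcb, at root-mean-square differences of 0.24, 0.30 and 0.31. Alox5ap stood at 88.4, 690.1 and 444 TPM in DPP3_KO replicates 1 to 3, against 151, 162 and 845 TPM in Ctrl replicates 1 to 3. For Il1b they were Cdk1, Zfp991 and Oas2 at 0.29, 0.33 and 0.34, all more distant than the nearest gene to Tnf. For Il6 they were Mycbp, Ptx3 and Deup1 at 0.27, 0.36 and 0.37. Ptx3, the pentraxin gene, stood at 0.36, 8.75 and 0.83 TPM in DPP3_KO replicates 1 to 3, against 1.52, 0.97 and 2.11 TPM in Ctrl replicates 1 to 3. These genes were picked by their likeness to the members, so a shared high library is no separate result.

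The remaining subunit and IkB genes were measured beside Nfkb1, Relb and Nfkbia. Of 5 subunit genes 2 fell as deposited, Nfkb1 and Rela, and 3 did not pass, where 34% of all genes were called lower. The list median was -0.58, near the -0.60 of all genes. Rela, the main activating subunit, stood at 43.2, 47.2 and 43.7 TPM in DPP3_KO replicates 1 to 3, against 72.7, 64.1 and 65.8 TPM in Ctrl replicates 1 to 3 (log2 change -0.58, limma adjusted p = 0.0284; 0.06 after ratio scaling, where 0 of 5 subunit genes reached even an unadjusted p under 0.05). Rel and Nfkb2 stood at -0.76 (adjusted p = 0.0870) and -0.35 (adjusted p = 0.412). Of 6 IkB family genes 0 rose and 0 fell (limma, 0 at an unadjusted p under 0.05 on either scale). As deposited 34% of all genes were called lower and 1.38% higher. The median of the 6 genes was -0.03 on the deposited scale and 0.58 after ratio scaling. Bcl3, an atypical IkB protein that acts in the nucleus, stood at 0.24, and Nfkbiz and Nfkbid, 2 further nuclear members, at -0.20 and -0.13. The median of the IkB genes was thus above that of all genes on both scales, without any member passing.

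Upstream, 8 of 20 genes of the kinase complex and its adaptors fell as deposited, 0 rose and 12 did not pass. Their median was -0.68, and 0 of 20 passed limma after ratio scaling, where the median was -0.06 and 5 were lower and 1 higher at an unadjusted p under 0.05. The death-domain kinase gene Ripk1 (log2 change -1.22, limma adjusted p = 0.0169), the IL-1 receptor kinase gene Irak1 (-1.18, 0.0186) and the IKK-related kinase gene Tbk1 (-1.25, 0.0189) had the smallest p. Of 12 feedback regulators, Tnfaip3 included, 4 fell and 0 rose as deposited and 0 passed limma after scaling (0 at an unadjusted p under 0.05), with medians of -0.67 and -0.04. The Tnfaip3 partner gene Tax1bp1 stood at 68.3, 82.7 and 69.1 TPM in DPP3_KO replicates 1 to 3, against 128, 142 and 184 TPM in Ctrl replicates 1 to 3 (log2 change -1.02, adjusted p = 0.0169). The deubiquitinase gene Otud7b and the adaptor gene Tnip2 fell by 1.16 and 1.08 on the log2 scale. For both lists the share lower was close to the 34% of all genes.

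Of 10 tested receptors, antagonists and IL-1 family ligands 5 fell as deposited, against 34% of all genes, and 0 rose; 0 passed limma after ratio scaling (2 lower at an unadjusted p under 0.05), with medians of -0.94 and -0.32. Il1r1, the signalling receptor of both IL-1 forms, stood at 7.66, 8.02 and 5.91 TPM in DPP3_KO replicates 1 to 3, against 14.9, 17.4 and 13.9 TPM in Ctrl replicates 1 to 3 (means 7.20 ± 1.13 TPM in DPP3_KO and 15.4 ± 1.79 TPM in Ctrl, SD, n = 3 each; limma adjusted p = 0.0173; log2 change -0.40 after scaling). The cytokine gene Il18 (-1.80, adjusted p = 0.0158) and Il6st, the shared signalling chain of IL-6 family receptors (-1.19, 0.0214), fell too. Il6ra, which binds IL-6, stood at -0.87 (adjusted p = 0.0900), and the TNF receptor genes Tnfrsf1a and Tnfrsf1b at -0.52 (0.0775) and -0.80 (0.322). The receptor antagonist gene Il1rn followed the library and not the group. It stood at 3.46, 102 and 22.9 TPM in DPP3_KO replicates 1 to 3, against 22.9, 22.3 and 115 TPM in Ctrl replicates 1 to 3. Il1b over Il1rn was accordingly 10.8, 3.49 and 5.67 in DPP3_KO, against 9.05, 8.60 and 1.85 in Ctrl (log2 difference 0.19, exact permutation p = 0.8, adjusted p = 0.800).

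Of 9 genes for cytokine processing and release 3 fell as deposited, Capn2 (-1.30), Adam17 (-1.31) and Capn1 (-0.97), and 0 rose, where 34% of all genes were called lower. After ratio scaling 0 passed limma, with 2 lower at an unadjusted p under 0.05. Adam17 encodes the protease that sheds TNF from the cell surface, and the calpain genes encode proteases that mature pro-IL-1 alpha. Of 20 further NF-kB target genes 1 rose, 1 fell and 18 did not pass as deposited. On that scale 34% of all genes were called lower and 1.38% higher. At an unadjusted p under 0.05 (limma) 4 of the 20 were lower and 1 higher. After ratio scaling 1 rose and 0 fell, against 1.9% and 0.882% of all genes. There 3 were higher and 0 lower at an unadjusted p under 0.05. The list median was -0.31 as deposited and 0.34 after scaling. The chemokine gene Ccl20 rose on both scales. It stood at 2.89, 8.24 and 2.48 TPM in DPP3_KO replicates 1 to 3, against 0.81, 0.51 and 1.10 TPM in Ctrl replicates 1 to 3 (log2 change 1.48, limma adjusted p = 0.0312; 1.87, adjusted p = 0.0496, after scaling). Cd40, a receptor gene of the TNF receptor family, fell as deposited (-0.74, adjusted p = 0.0416), and the apoptosis regulator gene Cflar stood at -0.90 (adjusted p = 0.0578).

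Adhesion genes for leukocytes had the lowest median of the 8 pathway lists, -1.10 as deposited and -0.44 after ratio scaling. Of 15 tested members 5 fell as deposited, Icam1 included, 0 rose and 10 did not pass, a share lower close to the 34% of all genes. After scaling 0 passed limma, with 3 lower and 1 higher at an unadjusted p under 0.05. Msn, which encodes the membrane linker moesin, stood at 174, 249 and 137 TPM in DPP3_KO replicates 1 to 3, against 477, 561 and 572 TPM in Ctrl replicates 1 to 3 (log2 change -1.56, limma adjusted p = 0.0145). The endothelial gene Icam2 (-1.87, adjusted p = 0.0155) and the integrin gene Itgb1 (-1.10, 0.0182) fell too. The beta2 integrin genes Itgal, Itgam and Itgb2 stood at -1.78, -0.78 and -1.70 (limma adjusted p = 0.0887, 0.534 and 0.0716). After ratio scaling they stood at -1.15, -0.14 and -1.05 (limma adjusted p = 0.399, 0.951 and 0.386). Itgb2 ran from 19.6 to 116 TPM in DPP3_KO and 118 to 301 TPM in Ctrl as deposited. On that scale 51.1% of all genes lay lower without overlap. These beta2 integrin genes, and the spread of Itgb2, were named after their values had been seen. The inducible selectin genes Sele and Selp stood at 0.19 and 0.70 as deposited and at 0.66 and 1.29 after ratio scaling. Neither passed on either scale (limma adjusted p = 0.334 and 0.209 after scaling). Selp was the 1 gene higher at an unadjusted p under 0.05 on the scaled values.

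**Figure D5:**
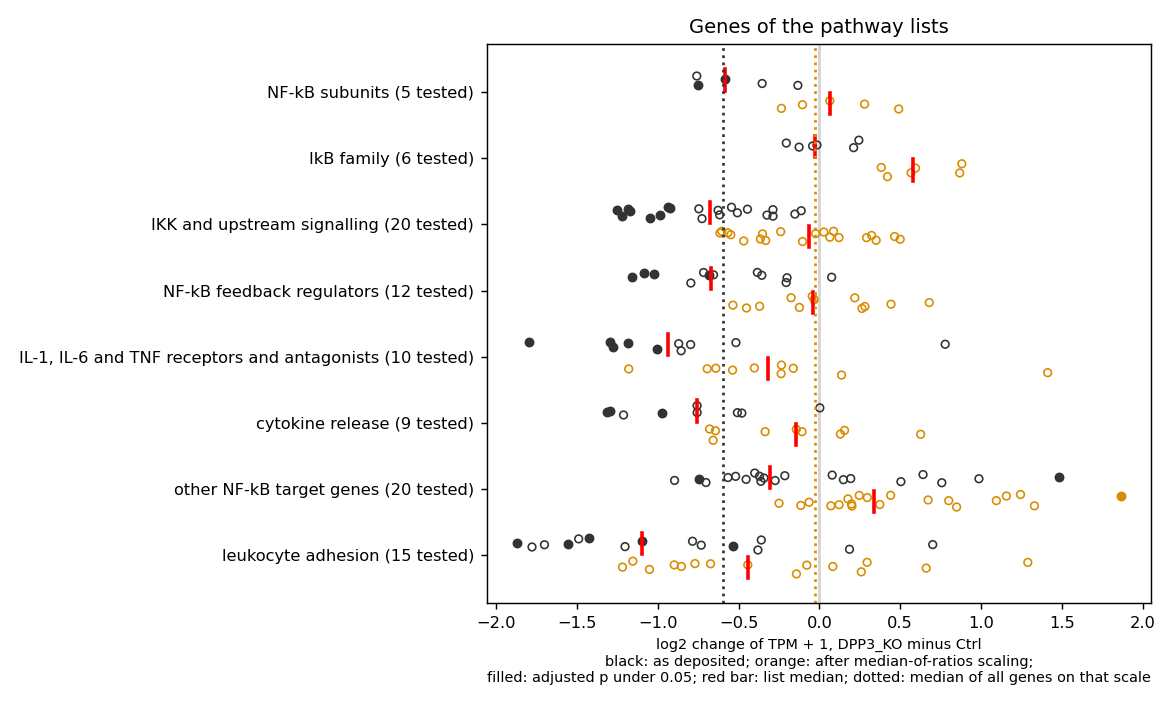
Log2 change of TPM + 1, DPP3_KO minus Ctrl (x axis), of each tested gene in 8 pathway lists, as deposited in black and after ratio scaling in orange; filled points have an adjusted p under 0.05, red bars are list medians and dotted lines the median of all genes. The list medians run from -1.10 for leukocyte adhesion to -0.03 for the IkB family as deposited, and after scaling the filled point is Ccl20.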

How the data were processed

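The authors deposited 1 matrix of TPM values for all 6 libraries, with the length of each gene. The submitters' processing notes name the build GRCm39 and the tools HISAT2, RSEM and StringTie without their roles; how human reads were handled, and any annotation release or strand setting, are given in no source used here. All 6 value columns matched a sample, and 0 columns were left over. TPM was changed to log2(TPM + 1), and genes whose mean reached 1 TPM were tested in R 4.3.3 with limma 3.58.1 (eBayes with an intensity trend; DPP3_KO minus Ctrl, two-sided, Benjamini-Hochberg over all genes tested, threshold 0.05). Sets were described by counts and medians, without a set test. The 10 genes and the lists were chosen with earlier results of these data known. From each pathway list the 3 non-members with the smallest p, and Il1r1, Il6ra, Tnfrsf1a, Tnfrsf1b and Il1rn, were named. Alternatives were other scalings, pseudocounts of 0.1 and 5, other filters, no trend, a replicate block and each library left out.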

Additional observations from a re-analysis of the deposited data

How the results depend on the processing

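Calls among the 10 genes depended on the scale of the values, and sequencing depth is unknown. Against 3 lower genes among the 10 as deposited, 0 were lower after median-of-ratios scaling, with gene length trends also removed and with a replicate block after that scaling, and 1, Icam1, was lower after quantile normalization and with TPM rescaled without Scgb1a1; leaving out single libraries on either scale gave 0 to 3. Over all genes, 138, 140, 353 and 84 were lower after median-of-ratios scaling, quantile normalization, rescaling without Scgb1a1 and removal of the length trend. Without a filter 3093 were lower. With a library left out 18 to 4993 were lower as deposited and 6 to 167 after median-of-ratios scaling. The number higher was 327 after quantile normalization and 129 without Scgb1a1. With a library left out it was 1 to 146 as deposited and 18 to 173 after median-of-ratios scaling. Fits with a library left out have fewer samples, and the cause of the other differences was not tested.

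Of the 238 alternative values of the single genes, 157 kept their direction and side of the threshold, 42 lost the call and 39 changed sign. Vcam1 turned to 0.26 after median-of-ratios scaling (also with the replicate block), 0.27 after quantile normalization and 0.37 with the length trend removed. Tnfaip3 turned to 0.26 after median-of-ratios scaling (also with the replicate block), 0.32 after quantile normalization and 0.45 with the length trend removed. Relb turned to 0.49 after median-of-ratios scaling (also with the replicate block), 0.52 after quantile normalization, 0.44 with the length trend removed and 0.16 without Scgb1a1. With a library left out, the ranges of log2 change were taken over both scales together. They were -0.58 to 0.39 for Vcam1, -0.83 to 0.062 for Nfkb1, -0.21 to 1.37 for Nfkbia and -0.85 to 0.80 for Tnfaip3. For Relb the range was -0.43 to 0.85, for Il1b -1.53 to 0.75, for Il6 -0.34 to 1.45 and for Tnf -0.35 to 1.86. At a mean of at least 5 TPM, Il1a and Il6 were not tested.

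Replicate numbers were not taken to pair the libraries: deviations from the group means correlated at 0.27, -0.21 and 0.15 for replicates 1, 2 and 3, and DPP3_KO replicate 2 correlated best with Ctrl replicate 3 (0.41). With a replicate block, 4734 genes were lower and 212 higher as deposited and the same 3 of the 10 genes were lower, while after median-of-ratios scaling 12 were lower and 39 higher over all genes.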
